A study of Mus musculus with 6 samples.

Results

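The Hox genes of mouse 3T3-L1 cells were read from a table of 46095 gene symbols, of which 39 had a symbol of the form Hoxa, Hoxb, Hoxc or Hoxd followed by a number. These 39 genes form 4 clusters, with 11 genes in Hoxa, 10 in Hoxb, 9 in Hoxc and 9 in Hoxd. The values are FPKM, fragments per kilobase of gene model scaled to library size. Levels of different genes depend on the gene model lengths used, which are not given. Comparisons between genes, and the limit of 1 FPKM used below, carry this uncertainty. Both groups were 3T3-L1 cells, a mouse embryonic fibroblast line used as a model of fat cell formation, labelled adipocytes and taken at day 8 after differentiation. One group of 3 libraries was untreated and the other group of 3 had received 0.125 μg/mL of Smilax glabra flavonoids. All 6 libraries come from this single line, so the Hox pattern is that of the line and not of a fat depot. The labels do not state whether the 3 libraries of a group were separate cultures, so the tests measure the spread between these libraries, which may be technical.

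Hox genes encode transcription factors that bind DNA through a homeodomain and give cells along the head-to-tail axis of the embryo their regional identity. The genes of a cluster lie in the order in which they act along that axis, with low numbers (paralog groups) used towards the head and high numbers towards the tail and the ends of the limbs. Genes of the same number in different clusters are paralogs. Fibroblasts and fat precursor cells of adult tissues keep a Hox pattern that reflects the body site they came from, and fat depots differ in it. Hox proteins bind many of their sites together with TALE homeodomain proteins of the Pbx and Meis families.

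Of the 39 Hox genes, 19 averaged 1 FPKM or more over the 6 libraries, 16 were above 0 but below that mean, and 4 were listed at 0 in every library. All levels were modest. The highest value of any Hox gene in any library was 15.3 FPKM (Hoxa2, untreated replicate 1), and 5192 genes of the table had a mean at or above that of Hoxa2. Summed over the 39 genes, the level was 100.8 ± 1.55 FPKM in untreated and 79.8 ± 4.99 FPKM in flavonoid-treated libraries (SD, n = 3 per group). Fragment numbers could be worked back from the steps of the FPKM values. The tested Hox genes rested on 11 to 979 fragments per library, out of totals of 21952064 to 26355863.

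**Figure D1:**
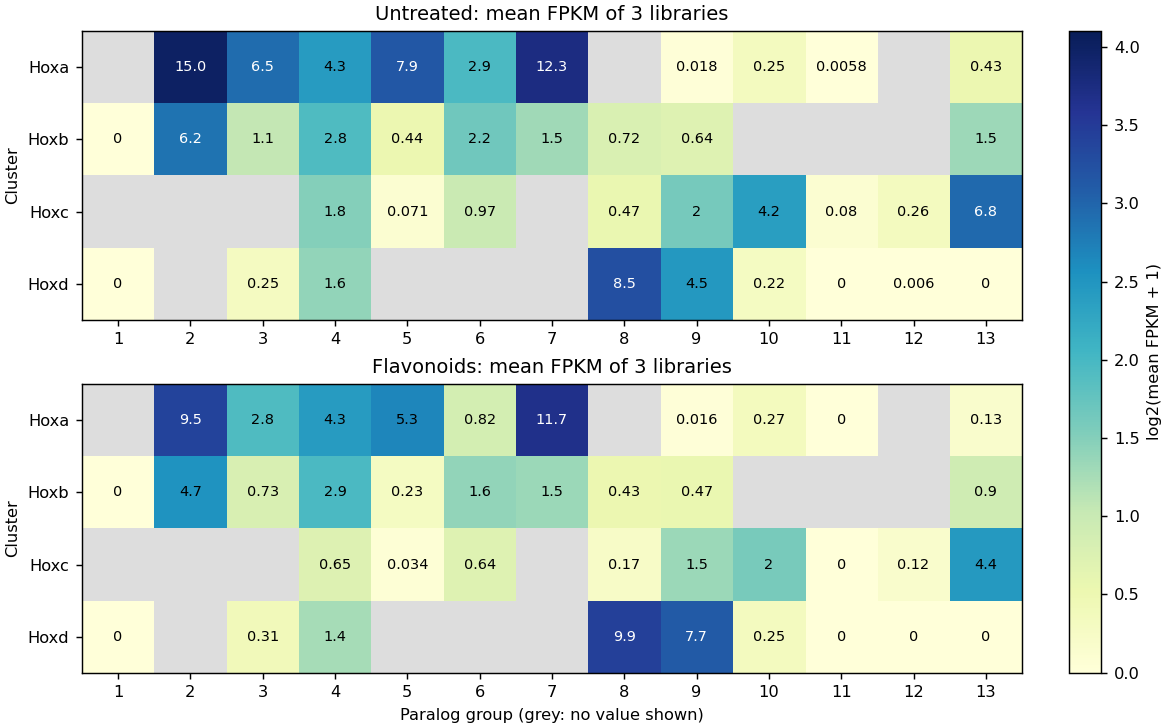
Mean FPKM of Hox genes, with the 4 clusters as rows and paralog groups 1 to 13 as columns, for untreated (top) and flavonoid-treated (bottom) libraries (3 each). Colour gives log2(mean FPKM + 1), numbers give mean FPKM and grey marks a combination with no gene or with no value shown. Hoxa2 to Hoxa7 form an unbroken expressed run that ends before Hoxa9. Hoxd4, Hoxd8 and Hoxd9 form a shorter run, while in Hoxc higher genes are separated by lower ones.

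In the Hoxa cluster (chromosome 6, GRCm38, the assembly that mm10 denotes) the expressed genes ended at Hoxa7. The 6 genes from Hoxa2 to Hoxa7 had means of 1.85 to 12.3 FPKM, and the 4 genes from Hoxa9 to Hoxa13 had means of 0.00288 to 0.278 FPKM. The genes from Hoxa9 to Hoxa13 held 1.22% of the cluster's summed FPKM. Hoxa9 was counted with 4 fragments over the 3 untreated and 4 over the 3 treated libraries, and Hoxa11 with a single fragment in all.

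Hoxb and Hoxc did not show such a block, while Hoxd held a shorter one. In Hoxb (chromosome 11), Hoxb2, Hoxb4, Hoxb6, Hoxb7 and Hoxb13 reached a mean of 1 FPKM. Hoxb3, Hoxb5, Hoxb8 and Hoxb9 lay between 0.338 and 0.898 FPKM, and Hoxb1 was listed at 0. In Hoxc (chromosome 15), Hoxc4, Hoxc9, Hoxc10 and Hoxc13 reached 1 FPKM. Hoxc11 and Hoxc12, which lie between the expressed genes Hoxc10 and Hoxc13, had means of only 0.0402 and 0.190 FPKM. In Hoxd (chromosome 2), the neighbours Hoxd4, Hoxd8 and Hoxd9 reached 1 FPKM, with no other Hoxd gene between them. Hoxd3 and Hoxd10, the genes next in number, had means of 0.280 and 0.238 FPKM. Hoxd12 had a single fragment in the 6 libraries.

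Hoxb1, Hoxd1, Hoxd11 and Hoxd13 were listed at 0 in all 6 libraries. A count of 0 allows up to 3 fragments per library, which for the annotated exon lengths of these genes is 0.0270 to 0.0734 FPKM, counting error only. Of the 20 nearest protein-coding genes other than Hox genes, 65.0% reached 1 FPKM around Hoxb1 and 55.0% around each of the 3 Hoxd genes, so these zeros do not lie in an empty stretch of the table.

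By paralog group, groups 2, 4 and 7 had all their genes at 1 FPKM or more, which is 2, 4 and 2 genes. Groups 11 and 12 had none. Group 13, the group of the tail end and of the tips of the limbs, was carried by Hoxc13 and Hoxb13, whereas Hoxa13 stayed under 1 FPKM and Hoxd13 was at 0. The genes just under the limit of 1 FPKM were Hoxb3 at 0.898, Hoxc6 at 0.808 and Hoxb8 at 0.576 FPKM. Those just above it were Hoxb13 at 1.20, Hoxc4 at 1.24 and Hoxb7 at 1.51 FPKM. Hoxc6 nevertheless had more fragments than Hoxc9, which reached the limit, 712 against 249 untreated and 506 against 201 treated. Their annotated exons hold 2408 and 2430 bases, so the place of Hoxc6 under the limit depends on the gene model lengths used.

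The order of levels among the leading genes differed between the groups. In untreated libraries Hoxa2 was highest and its lowest library (14.5 FPKM) lay above the highest library of Hoxa7 (13.6 FPKM). Hoxa7 in turn lay above Hoxd8, its lowest library being 10.6 FPKM against 9.91 FPKM. With flavonoids the libraries of Hoxa2 and Hoxa7 overlapped, and Hoxd8, at 9.86 ± 0.171 FPKM (SD, n = 3), lay just below Hoxa7 without overlap (at most 10.02 against at least 10.07 FPKM). Hoxa7 was nevertheless worked back to fewer fragments than Hoxd8, 856 against 1223 untreated and 868 against 1544 treated. These are the smallest whole numbers that match, and they are too small where a gene's numbers share a divisor. The annotated exons of Hoxa7 and Hoxd8 hold 2876 and 2744 bases. Whether their differing order in FPKM and in fragments comes from the gene model lengths used or from such a divisor was not tested. Hoxd9 stood below Hoxa5 in every untreated library (at most 5.0 against at least 7.57 FPKM), and with flavonoids it stood above it in every library (at least 7.51 against at most 5.99 FPKM).

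**Figure D2:**
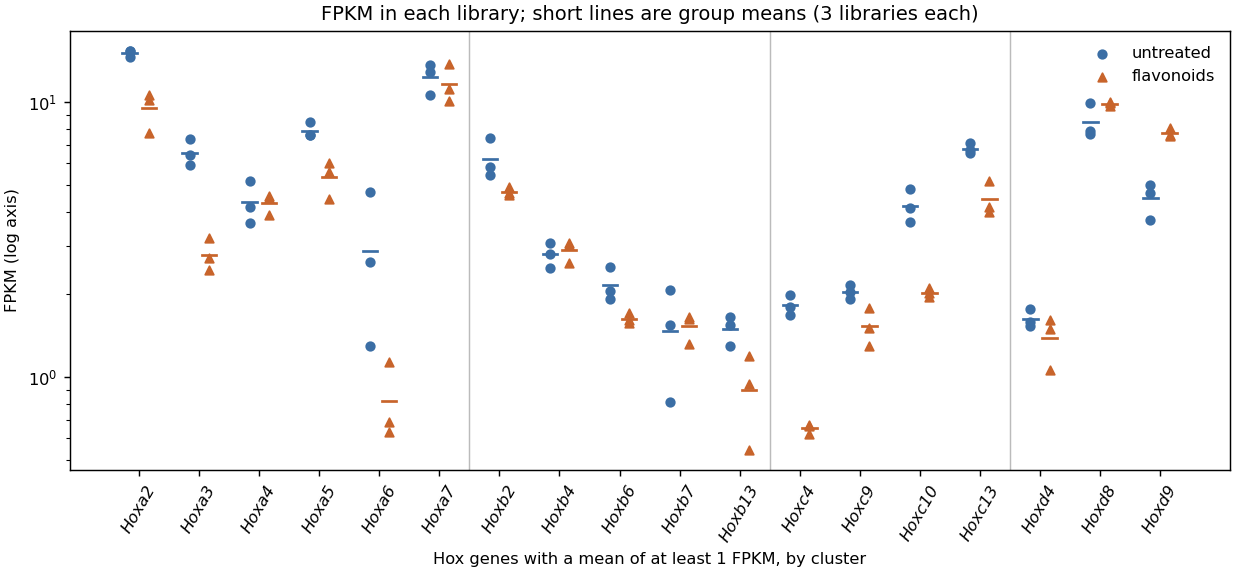
FPKM of 18 of the 19 Hox genes averaging 1 FPKM or more in each of the 6 libraries, on a log axis, with untreated libraries as circles, flavonoid-treated libraries as triangles and short lines for group means. Hoxa3, Hoxc4 and Hoxc10 show wide gaps with the treated libraries below, Hoxd9 shows a gap with them above, and Hoxa4, Hoxa7, Hoxb4 and Hoxb7 overlap.

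The comparison of the groups asks whether Hox transcripts differ between treated and untreated cells. Of the 19 tested genes, 5 fell (Hoxa2, Hoxa3, Hoxc4, Hoxc10 and Hoxc13), 1 rose (Hoxd9) and 13 did not pass the test (limma on log2(FPKM + 1), fitted over all 11464 genes averaging 1 FPKM or more, Benjamini-Hochberg adjusted p under 0.05). Among all genes tested, 9.99% were called, 5.13% as lower and 4.86% as higher. The called Hox genes were 31.6% of the 19, and those called lower were 26.3%. The median log2 change was -0.27 over the tested Hox genes and -0.02 over all tested genes. Hoxa6, Hoxb13 and Hoxc4 reached a mean of 1 FPKM only through the untreated group, and could pass the filter only by being higher there. Of the 16 Hox genes averaging 1 FPKM or more in both groups 5 were called, against 9.65% of all genes meeting the same limit. In bulk samples fewer cells of a type and less RNA per cell cannot be told apart. The summed level of the fat precursor and fibroblast markers, given with the marker checks, was also lower in treated libraries, and its part in the Hox values was not tested. The calls depended on single libraries. Without untreated replicate 2, 0 Hox genes were called by limma, and 140 of 11444 genes in all, or 1.22%. In that fit 8 of the 19 Hox genes had an unadjusted p under 0.05, beside 2023 of the 11444 genes. Without flavonoids replicate 1 or 2, 1 Hox gene was called in each case, Hoxa3, beside 1.86% and 3.14% of all genes. The direction of each of the 6 called genes was kept in every setting tried.

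Hoxa3, needed for the thymus, the parathyroid and parts of the throat skeleton, lies at chromosome 6, 52169062 to 52213336, on the minus strand. It measured 5.91, 6.40 and 7.33 FPKM in untreated replicates 1 to 3 and 2.45, 3.21 and 2.72 FPKM in treated replicates 1 to 3. Every treated library lay well below the lowest untreated one. The mean was 2.34-fold lower (log2 change -0.99, SE 0.14, limma adjusted p = 0.00591). It passed in 17 of 18 other settings and missed only without untreated replicate 2 (adjusted p = 0.0502, range over all settings 0.000975 to 0.0502). Antisense genes cover 25.4% of its annotated exon bases, among them Hoxaas2, whose values are given with the long non-coding RNAs, and without known strand their reads cannot be told apart.

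Hoxa2, which sets the identity of the second branchial arch and of part of the hindbrain, is the neighbour of Hoxa3 (chromosome 6, 52162417 to 52164831, minus strand). Its values were 15.3, 15.3 and 14.5 FPKM in untreated libraries and 7.72, 10.2 and 10.6 FPKM in treated ones. The untreated libraries lay close together and the treated ones were lower and more spread. The mean was 1.58-fold lower (log2 change -0.62, SE 0.14, limma adjusted p = 0.0270). The call was lost without untreated replicate 2 (adjusted p = 0.136), flavonoids replicate 1 (0.112) or flavonoids replicate 2 (0.0736) and with no filter on low values (0.0671).

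The remaining Hoxa genes split into those that were lower in every treated library without passing the test and those that overlapped. Hoxa5, which acts in lung and rib cage development, measured 7.62, 8.45 and 7.57 FPKM untreated and 5.58, 5.99 and 4.43 FPKM treated (log2 change -0.49, limma adjusted p = 0.0591). It passed once each library's trend over gene length was removed (adjusted p = 0.0191, over all settings 0.0191 to 0.246). Hoxa6 measured 1.29, 2.63 and 4.70 FPKM untreated against 0.686, 1.13 and 0.635 FPKM treated, with an adjusted p of 0.0687 in limma. Its untreated libraries ranged widely, and without untreated replicate 1 it passed (0.00878, over all settings 0.00878 to 0.201). Hoxa7 measured 12.3 ± 1.57 and 11.7 ± 1.898 FPKM, Hoxa4 4.32 ± 0.788 and 4.30 ± 0.376 FPKM (SD, n = 3 per group), and both overlapped between the groups. Their log2 changes were -0.08 for Hoxa7 and 0.00 for Hoxa4, with an SE of 0.15 each, and whether these differ from the changes of Hoxa2 and Hoxa3 was not tested.

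In Hoxc, the clearest separations were those of Hoxc4 and Hoxc10. Hoxc4, a gene of the neck and upper trunk level at the low-numbered end of the cluster (chromosome 15, 103018934 to 103036852, plus strand), measured 1.68, 1.99 and 1.81 FPKM untreated and 0.623, 0.673 and 0.663 FPKM treated. These values rest on 456 fragments in the untreated and 176 in the treated libraries. The mean was 2.79-fold lower, while the log2 change of -0.77 (SE 0.14, limma adjusted p = 0.0122) is reduced by the added 1 FPKM at such a level. The fit on fragments, which adds no FPKM, gave -1.47 (adjusted p = 0.00549). Leaving out untreated replicate 2 (adjusted p = 0.0890) or flavonoids replicate 1 (0.0696) or 2 (0.0552) lost the call, as did the replicate number as a block (0.0619).

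Hoxc10, a gene of the lumbar level and the hindlimb that also marks fat of the lower body, lies at chromosome 15, 102966796 to 102971893. It measured 4.82, 4.11 and 3.68 FPKM in untreated and 2.03, 2.11 and 1.96 FPKM in treated libraries. The treated libraries were nearly alike and all below the untreated ones. The mean was 2.07-fold lower (log2 change -0.77, SE 0.14, limma adjusted p = 0.0127). Its call was lost without the same 3 libraries as that of Hoxc4, with adjusted p of 0.0821 without untreated replicate 2 and 0.0666 and 0.0541 without flavonoids replicates 1 and 2. With the replicate number as a block it was lost too (0.0520). Hoxc5, whose annotated exons overlap 8.70% of those of Hoxc10 on the same strand, had 14 fragments in untreated and 7 in treated libraries.

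Hoxc13, a gene of hair and nail formation at the high-numbered end of the cluster (chromosome 15, 102921103 to 102928814), was the highest Hoxc gene. Its values were 6.70, 7.08 and 6.54 FPKM untreated and 3.97, 4.17 and 5.17 FPKM treated. The groups did not overlap and the mean was 1.53-fold lower (log2 change -0.52, SE 0.13, limma adjusted p = 0.0438). This call was the closest to the threshold of the 6. It was lost after rescaling to TPM (adjusted p = 0.0583), median-ratio scaling (0.0519) and quantile normalization (0.113). It was also lost with no filter (0.0919) and with the replicate number as a block (0.106). Over all settings the adjusted p ran from 0.0147 to 0.202. Libraries whose omission lost it were untreated replicates 2 (0.202) and 3 (0.0505) and flavonoids replicates 1 (0.177) and 2 (0.158). Hoxc9 measured 2.04 ± 0.121 and 1.53 ± 0.242 FPKM without overlap (SD, n = 3 per group; limma adjusted p = 0.263).

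Hoxd9, a gene of the lumbar level and the limb (chromosome 2, 74697727 to 74700208, plus strand), was the Hox gene that rose. It measured 5.0, 3.73 and 4.67 FPKM in untreated and 7.57, 7.51 and 8.05 FPKM in treated libraries. The lowest treated library stood well above the highest untreated one. The mean was 1.73-fold higher (log2 change 0.68, SE 0.14, limma adjusted p = 0.0183). The call was lost without untreated replicate 2 (adjusted p = 0.116) and without flavonoids replicate 1 (0.0839), 2 (0.0711) or 3 (0.0595). It was also lost with no filter (0.0521) and with the replicate number as a block (0.0562). Hoxd8, its neighbour on the chromosome, measured 9.91, 7.86 and 7.66 FPKM untreated and 9.88, 10.02 and 9.68 FPKM treated. The first untreated library lay among the treated ones, and the log2 change was 0.20 (limma adjusted p = 0.359). Hoxd4 measured 1.63 ± 0.124 and 1.39 ± 0.294 FPKM, but 52.3% of its annotated exon bases are shared with Hoxd3 or a read-through model on the same strand, so these genes may split reads.

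**Figure D3:**
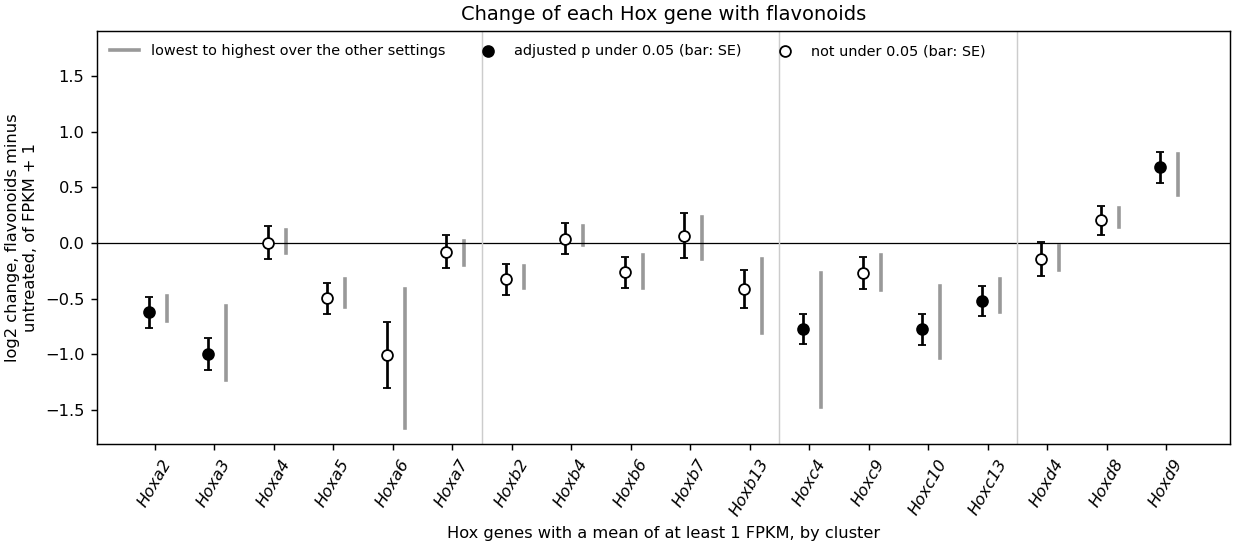
Log2 change (flavonoids minus untreated, of FPKM + 1) of 18 of the 19 tested Hox genes with its SE, filled where the adjusted p was under 0.05. Grey lines give the lowest and highest change over the other settings. Hoxa2, Hoxa3, Hoxc4, Hoxc10 and Hoxc13 lie below 0 and Hoxd9 above it over the whole of their grey lines, while those of Hoxa4, Hoxa7, Hoxb4 and Hoxb7 cross 0.

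To show the sequence beside genes with different outcomes, the stretches upstream of 3 genes are printed from RefSeq's promoter windows (GRCm38.p6), leaving out annotated exons. Hoxa2 fell, Hoxd9 rose and Hoxd8 is the neighbour of Hoxd9 whose groups overlapped. The table of windows held 22 of the 39 Hox genes. Each is written 5′ to 3′ on the strand of its gene, as chr6:52164832-52165081 (minus strand), chr2:74697587-74697726 (plus) and chr2:74704365-74704614 (plus). Capitals mark CCAAT or its reverse complement ATTGG, a common promoter element, and TGATNNAT on either strand, the form of sites that Hox and Pbx proteins bind together.
Hoxa2: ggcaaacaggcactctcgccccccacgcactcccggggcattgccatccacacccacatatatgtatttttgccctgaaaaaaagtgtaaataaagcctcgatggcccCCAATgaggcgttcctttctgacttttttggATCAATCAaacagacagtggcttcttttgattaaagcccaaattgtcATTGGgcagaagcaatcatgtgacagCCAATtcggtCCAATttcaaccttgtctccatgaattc
Hoxd9: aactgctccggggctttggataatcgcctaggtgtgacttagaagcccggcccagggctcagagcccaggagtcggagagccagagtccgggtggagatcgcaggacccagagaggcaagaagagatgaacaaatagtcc
Hoxd8: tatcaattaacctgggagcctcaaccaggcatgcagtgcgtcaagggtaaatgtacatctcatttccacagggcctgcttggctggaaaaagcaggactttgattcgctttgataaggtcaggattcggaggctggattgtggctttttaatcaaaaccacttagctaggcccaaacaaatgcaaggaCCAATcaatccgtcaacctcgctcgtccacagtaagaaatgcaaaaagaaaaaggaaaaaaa

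The Hoxa2 stretch held 4 CCAAT elements and 1 TGATNNAT match, none of which overlap. Over all 32851 windows of 300 bases, 1.06% held 4 or more CCAAT and 8.85% held TGATNNAT, counting both strands. The Hoxd8 stretch held 1 CCAAT, and the 140 bases of Hoxd9, which end 37 bases before its RefSeq start, held neither. Of the 24 Hox windows, 15 held a CCAAT, 4 a TGATNNAT and 4 a TATAAA, against 37.4%, 8.85% and 13.6% of all windows. Hox windows had a median of 14.5 CpG dinucleotides, against 7 over all windows, and a range of 4 to 45.

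The Hoxb genes gave no call. Hoxb2, which acts in the hindbrain, was the highest of them and measured 7.41, 5.82 and 5.44 FPKM untreated against 4.68, 4.90 and 4.58 FPKM treated (log2 change -0.33, limma adjusted p = 0.178). All treated libraries were below all untreated ones, and 27.3% of its annotated exon bases overlap an antisense gene. It passed where the length trend was removed (adjusted p = 0.0454, over all settings 0.0454 to 0.389). Hoxb6 measured 2.17 ± 0.312 and 1.63 ± 0.0684 FPKM and Hoxb13, a gene of the tail end and the prostate, 1.503 ± 0.187 and 0.896 ± 0.329 FPKM (SD, n = 3 per group), again without overlap but with adjusted p of 0.273 and 0.165 in limma. Hoxb4 and Hoxb7 overlapped, at 2.80 ± 0.289 and 2.90 ± 0.262 FPKM and at 1.48 ± 0.632 and 1.54 ± 0.186 FPKM.

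Without the test, the treated libraries lay wholly below the untreated ones in 11 of the 19 tested Hox genes and wholly above them in 1, and in 7 the groups overlapped. Among all tested genes 34.3% did not overlap, 17.3% with treated libraries below and 17.0% with them above. The 11 include Hoxa6, Hoxb13 and Hoxc4, which passed the filter only through the untreated group. Of the 16 Hox genes averaging 1 FPKM or more in both groups 8 lay below and 1 above, against 16.5% and 17.1% of all such genes. Of the 16 genes above 0 but under 1 FPKM, 5 separated downwards, namely Hoxa13, Hoxb3, Hoxb8, Hoxc6 and Hoxc8, and 0 upwards. Among all 10771 genes in that range 9.56% separated downwards and 2.93% upwards. Hoxa13 had 40 fragments in untreated and 13 in treated libraries, and Hoxc8 had 79 and 32. In Hoxc8 treated replicate 2, at 0.382 FPKM, lay just under the lowest untreated library at 0.401 FPKM, while the other two were at 0.0843 and 0.0511 FPKM. Fitted with no filter on low values, 3 of 35 Hox genes were called, Hoxa3, Hoxc4 and Hoxc10, against 2.88% of all genes in that fit.

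Summed by cluster, Hoxa measured 52.1 ± 3.35 and 37.1 ± 3.18 FPKM in untreated and treated libraries, Hoxb 17.04 ± 0.517 and 13.6 ± 0.777 FPKM, and Hoxc 16.7 ± 0.357 and 9.63 ± 0.821 FPKM (SD, n = 3 per group). Hoxd was the cluster with the higher sum in treated libraries, at 15.1 ± 1.74 and 19.5 ± 0.275 FPKM. In each cluster the groups did not overlap. As a share of all Hox FPKM, Hoxc went from 16.6% ± 0.581 to 12.1% ± 0.375 and Hoxd from 14.9% ± 1.83 to 24.5% ± 1.25 (SD, n = 3 per group). These sums are descriptions and were not tested. Within Hoxd the difference rests on Hoxd9 and Hoxd8.

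**Figure D4:**
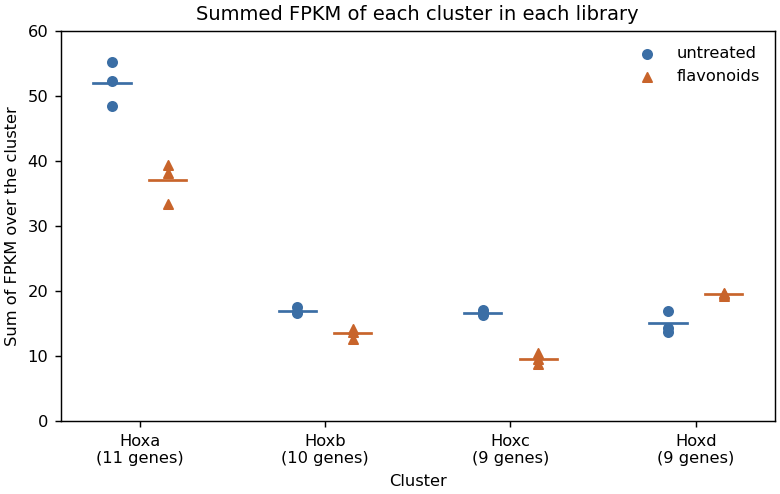
Summed FPKM of the genes of each Hox cluster in each library, with untreated libraries as circles, flavonoid-treated libraries as triangles and short lines for group means. Treated libraries lie below untreated ones in Hoxa, Hoxb and Hoxc and above them in Hoxd.

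Long non-coding RNAs were followed from a list of 15, of which 12 were in the table and 2 reached 1 FPKM. Among the 12, Mirt1 lies on chromosome 19, outside the Hox clusters, and stayed under 1 FPKM. Hotairm1, transcribed on the strand opposite to the Hoxa genes, beside Hoxa2, was as abundant as the leading Hox genes and measured 19.7, 12.3 and 9.07 FPKM untreated and 15.6, 12.1 and 9.41 FPKM treated (limma adjusted p = 0.848). The libraries spread widely within each group and overlapped. Hoxaas2, antisense to Hoxa3, measured 1.70, 1.94 and 1.57 FPKM untreated and 0.765, 0.794 and 1.16 FPKM treated, without overlap (log2 change -0.53, limma adjusted p = 0.0629). In limma 0 of the 2 passed the test, against 9.99% of all genes. Of the 2, 1 had an unadjusted p under 0.05, against 3105 of all 11464 genes, and voom called 0. Hotair, of the Hoxc cluster, stayed at or below 0.0577 FPKM, and Hottip, Haglr and Hoxb5os were listed at 0.

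The Hox partner genes were well expressed and mostly did not pass the test. Of 12 listed genes, which are TALE homeodomain genes and Pbxip1, a Pbx-binding protein gene, 11 were tested, 1 rose and 0 fell (9.09% called, against 9.99% of all genes). The one that rose was Tgif1, a TALE repressor of TGF-beta signalling rather than a usual Hox partner, at 24.4, 22.1 and 25.2 FPKM untreated and 53.3, 54.7 and 55.9 FPKM treated (log2 change 1.16, SE 0.11, limma adjusted p = 0.00180). Among the Meis genes, Meis2 was highest at 34.5 ± 5.83 and 28.2 ± 5.11 FPKM. Meis1 measured 12.96 ± 2.01 and 8.91 ± 0.932 FPKM (limma adjusted p = 0.0692) and Meis3 22.2 ± 1.62 and 27.3 ± 0.918 FPKM (0.131), with Meis1 lower and Meis3 higher in every treated library. Among the Pbx genes, Pbx3 measured 12.04 ± 0.379 and 9.75 ± 0.480 FPKM and Pbx4 1.56 ± 0.236 and 1.34 ± 0.0739 FPKM (SD, n = 3 per group). Pknox1 measured 13.5 ± 0.969 and 11.6 ± 0.656 FPKM, Pknox2 5.01 ± 0.720 and 5.51 ± 0.407 FPKM, Pbxip1 25.1 ± 3.20 and 25.8 ± 2.52 FPKM and Tgif2 3.32 ± 0.480 and 2.84 ± 0.0844 FPKM. Pbx2 stayed at or below 0.129 FPKM, but 0 of its 20 nearest protein-coding genes on chromosome 17 reached 1 FPKM, so its low value cannot be told apart from a stretch that the table leaves nearly empty.

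Regulators that keep Hox clusters silent or active gave 1 call. Of the Polycomb subunits, which maintain Hox silencing, 33 of 37 were tested and 0 passed in limma, against 9.99% of all genes. An unadjusted p under 0.05 was reached by 5 of the 33, against 3105 of all 11464 genes. Voom called 0 of the Polycomb genes, and their median log2 change was -0.09. Of the Trithorax group and histone H3K27 demethylase genes, which oppose Hox silencing, 1 of 25 was called (4.0%, against 9.99% of all genes). This was Psip1, a chromatin adaptor of the MLL complexes, at 30.8 ± 2.33 and 18.7 ± 5.14 FPKM (log2 change -0.72, limma adjusted p = 0.04997, just under the threshold; SD, n = 3 per group), and voom called 0.

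Retinoic acid induces low-numbered Hox genes in embryos, and 3 of 8 tested genes of its synthesis, breakdown and reception were called, against 9.99% of all genes. Aldh1a1, which makes retinoic acid, fell from 137.9 ± 23.2 to 91.995 ± 1.71 FPKM (limma adjusted p = 0.0408), and Cyp26b1, which breaks it down, from 2.43 ± 0.561 to 0.795 ± 0.253 FPKM (0.0154; SD, n = 3 per group). Dhrs3, which returns retinaldehyde to retinol, rose from 25.7 ± 2.04 to 39.0 ± 5.41 FPKM (limma adjusted p = 0.0285). Cyp26b1 reached the filter of 1 FPKM only through the untreated group. The called members include genes of synthesis and of breakdown.

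Other transcription factors of body position and limb formation were taken from a list of 77, of which 36 were tested and 28 were listed at 0. Of the tested genes 6 fell and 1 rose (19.4% called, against 9.99% of all genes), with a median log2 change of -0.19. Prrx1 and Prrx2, paired-type homeobox genes of limb mesenchyme, fell from 59.7 ± 8.46 to 31.2 ± 5.77 FPKM (limma adjusted p = 0.0127) and from 111 ± 16.5 to 67.9 ± 2.66 FPKM (0.0159). Twist1, a mesenchymal regulator, and Osr1 fell by 0.65 and 0.51 on the log2 scale (limma adjusted p = 0.0250 and 0.0203). Shox2 and Dlx1, named after their values were seen, fell by 0.65 and 0.69 on that scale. Irx1, an Iroquois homeobox gene, measured 100.4 ± 6.72 FPKM untreated and 179 ± 3.69 FPKM treated and rose by 0.83 on the log2 scale (limma adjusted p = 0.00483; SD, n = 3 per group). The forelimb factor Tbx5 and the hindlimb factor Pitx1 were listed at 0 in all libraries.

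**Figure D5:**
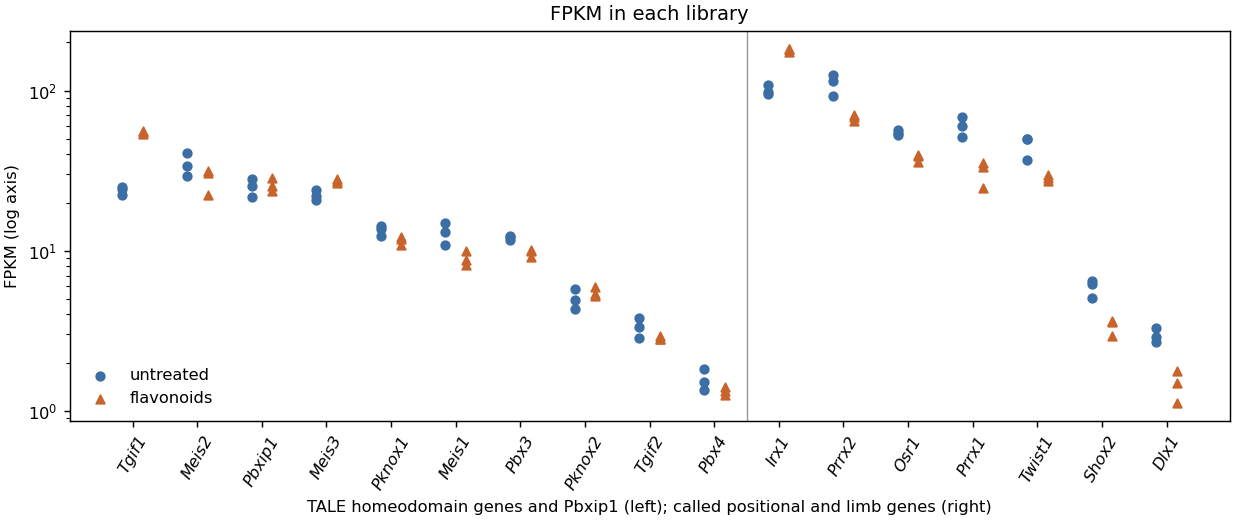
FPKM in each library, on a log axis, of tested TALE homeodomain genes and Pbxip1 (left) and of the 7 called positional and limb transcription factors (right), untreated as circles and flavonoid-treated as triangles. On the left only Tgif1 passed the test, and on the right Irx1 rose and the other 6 fell.

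Genes beside the clusters were read from a list of 20, of which 18 were in the table and 11 tested. In limma 0 passed, against 9.99% of all genes. An unadjusted p under 0.05 was reached by 1 of the 11, against 3105 of all 11464 genes, and voom called 0. Among the listed genes Skap2 and Hibadh flank Hoxa and Mtx2 lies beyond Hoxd. Evx1 and Evx2, homeobox genes at the high-numbered ends of Hoxa and Hoxd, were listed at 0.

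Markers were checked against the label. Of 19 mature adipocyte markers 11 were tested and 0 passed in limma (2 at an unadjusted p under 0.05, 0 by voom). Among all 11464 tested genes 9.99% passed and 3105 had an unadjusted p under 0.05. The summed level of the adipocyte markers was 509 to 516 FPKM in untreated and 488 to 640 FPKM in treated libraries. Adipoq, Plin1 and Cidec had group means under 1 FPKM although the label names adipocytes, and Fabp4, Lpl and Pparg were expressed. The 16 preadipocyte and fibroblast markers summed to 9052 to 9526 FPKM untreated and 6716 to 7223 FPKM treated, with 4 of 15 tested lower and 1 higher, against 5.13% and 4.86% of all genes. Muscle markers did not pass the test (0 of 3 in limma, 2 at an unadjusted p under 0.05, 0 by voom), with Myod1 and Ckm at 0. The 7 skeletal and smooth muscle markers nevertheless summed to 276 to 397 FPKM in untreated and 330 to 384 FPKM in treated libraries. Ptprc, Epcam, Cdh5, Kdr, Pou5f1 and Zfp42, which define blood, epithelial, endothelial and stem cells, were listed at 0 throughout. The summed levels were 1.87 to 3.50 and 1.92 to 2.62 FPKM for the 6 macrophage and blood markers, 0.216 to 0.283 and 0.289 to 0.345 FPKM for the endothelial, 0.450 to 0.845 and 0.112 to 0.155 FPKM for the epithelial and 0.314 to 0.578 and 0.276 to 0.404 FPKM for the stem cell markers, untreated and treated.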

How the data were processed

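Total RNA of 3 untreated and 3 flavonoid-treated 3T3-L1 samples went through a TruSeq RNA library kit, per the labels' protocols. The authors deposited 1 table of FPKM values per gene symbol and sample. FastQC, HISAT2 and the build mm10 are named per the submitters' processing notes. Counting tool, annotation and strand use: not given in the sources used here, so overlapping, antisense or paralogous genes may share reads.

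Limma 3.58.1 (R 4.3.3) tested log2(FPKM + 1) two-sided with a trended prior over the 11464 genes averaging 1 FPKM or more. Differences on this scale understate the change of low genes. Values called fold are ratios of mean FPKM. Whole fragments were worked back from the FPKM steps for 22235 genes (100% within 0.005 fragments), and where a gene's numbers share a divisor they are too small by it. The scripts were tested on simulated data. Other settings tried were pseudocounts of 0.1 and 5 FPKM, no filter, a minimum mean of 5 FPKM, 3 scalings, 2 variance models, the replicate number as a block, removal of each library's loess trend (span 0.5) over implied gene length with and without the block, voom on the fragments, and leaving out each library.

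Hox genes were matched by symbol and counted. Values of 1 Hox gene and of 1 partner gene are not reported here. From the other lists, called members up to the 5 of smallest p were named, with the other tested long non-coding and TALE genes whatever their result, and a few more after their values were seen. The members and lists were chosen with earlier results of these data known. Positions come from GENCODE M21 (GRCm38). Fragments, annotation and figures used Python 3.11.15.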

Additional observations from a re-analysis of the deposited data

How the results depend on the processing

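Depth limits Hoxa9, Hoxa11, Hoxc11 and Hoxd12, which rest on 8, 1, 5 and 1 fragments over the 6 libraries, while Hoxc6, also under 1 FPKM, rests on 1218. The count of 19 Hox genes at or above 1 FPKM was the same under TPM and median-ratio scaling and without each library in turn. The count of called Hox genes, 6 of 19, was 3 of 35 with no filter and 0 to 7 of 19 when a library was left out. At a minimum mean of 5 FPKM it was 3 of the 7 Hox genes then tested, beside 11.6% of all genes. Hoxa3, Hoxc4 and Hoxc10 fell under that minimum and were not tested there. The count of all called genes, 1145, was 641 with no filter and 2494 with the length trend removed, and 140 to 1702 when a library was left out. With the replicate number as a block 1 Hox gene, Hoxa3, and 457 genes were called, and with the block and the length trend removed 7 Hox and 2049 genes. Same-numbered libraries did not deviate together (r = -0.14, -0.12 and -0.20 for numbers 1, 2 and 3). With 3 libraries per group this cannot show whether the numbers pair the samples. The cause of these shifts was not tested.

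Among the log2 changes of 18 tested Hox genes, 4 changed sign under some setting, and these 4 passed the test in none. Hoxa4 was -1.2e-05 with a pseudocount of 5 FPKM, -0.043 on the TPM scale, -0.029 with the length trend removed (-0.029 with the block too) and -0.091 to 0.117 when a library was left out. Hoxb4 was -0.0051 on the TPM scale. When a library was left out, Hoxa7 ranged from -0.193 to 0.015, Hoxb4 from -0.017 to 0.097 and Hoxb7 from -0.144 to 0.237.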
